A study of Mus musculus with 12 samples.

Results

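Cycling Tpex cells were chosen by their deposited cell cycle scores, as the cells of the 2 Tpex libraries whose S score or G2M score was above 0.2. There were 2465 of them among 26080 Tpex cells, in a series of 100540 cells: 1286 of 13209 after anti-CD137 and 1179 of 12871 after control Ig. Splenic CD8+ T cells came from wild-type C57BL/6 mice injected 2 times a week for 14 days, either 5 mice with 10 µg of anti-CD137 (clone 3H3, which binds the costimulatory receptor CD137, also called 4-1BB) or 10 mice with 100 µg of a control Ig (clone HRPN). Tpex cells were sorted as CD44-high, PD1+, Slamf6+ and Tim3-, and the Tex cells they are compared with as CD44-high, PD1+, Slamf6- and Tim3+. Each population gave 1 gene expression and 1 T cell receptor (TCR) library, no cell was assigned to a mouse, and dose and mouse number differed between treatments together with the antibody. No difference between treatments therefore has a replicate check, and no test was run on one. Intervals are 95% intervals that cover counting error only, and cells of 1 clonotype are not independent draws. The scores are the only evidence of division used here: no expression values per gene were used, so the label could not be checked against cell cycle genes, nor the sort against its markers.

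Precursor exhausted cells are PD1+ T cells that keep the ability to divide and renew themselves, and their descendants include the Tim3+ exhausted cells. An S score summarises genes of DNA replication in a cell's RNA, and a G2M score summarises genes of mitosis. A score is a difference from control genes, so a value near 0 means no excess of those genes. In each developing T cell V, D and J segments are joined into a TRB gene and V and J segments into a TRA gene, with bases lost and added at the joints. Daughter cells inherit both chains, so cells with the same pair of junctions (CDR3s) are read as 1 clonotype.

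The junctions below belong to clonotypes named in the results: by both chains the 3 anti-CD137 and the 4 control clonotypes with the most cycling cells (the last tied with 1 of 18 cells), 1 anti-CD137 TRB whose cells were all cycling, and 2 control clonotypes with 0 cycling cells. Sequences are the nucleotide CDR3s of the deposited TCR table, 5′ to 3′. Lower case marks bases that match the germline V or J segment of the GENCODE M21 transcripts (GRCm38, also called mm10) from the ends inward, and capitals mark the bases that neither segment explains. The TRB segments lie on chromosome 6 and the TRA segments on chromosome 14. In these chains TRBV12-2 lies at chr6:41118851-41119364, TRBV17 at chr6:41163062-41163556, TRBV29 at chr6:41271394-41271881, TRBV2 at chr6:41047340-41047995 and TRBV5 at chr6:41062332-41062803.
Anti-CD137, 11 of 29 Tpex cells cycling, TRBV12-2 TRBJ2-7: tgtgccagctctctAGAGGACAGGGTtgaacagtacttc
Its TRA, TRAV13-1 TRAJ15: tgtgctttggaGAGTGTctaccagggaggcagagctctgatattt
Anti-CD137, 6 of 46 cycling, TRBV17 TRBJ2-4: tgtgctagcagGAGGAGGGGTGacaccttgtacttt
Its TRA, TRAV3N-3 TRAJ22: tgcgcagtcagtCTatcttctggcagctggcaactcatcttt
Anti-CD137, 5 of 15 cycling, TRBV29 TRBJ2-2: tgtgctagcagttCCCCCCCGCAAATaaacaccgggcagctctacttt
Its TRA, TRAV12-2 TRAJ5: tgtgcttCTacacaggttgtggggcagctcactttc
Anti-CD137, TRB alone, 6 of 6 cycling, TRBV29 TRBJ1-3: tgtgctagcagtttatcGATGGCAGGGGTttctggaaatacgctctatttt
Control, 135 of 869 cycling, TRBV2 TRBJ2-1: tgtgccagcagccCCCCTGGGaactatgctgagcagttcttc
Its TRA, TRAV6-7-DV9 TRAJ43: tgtgctctgagGaacaatgccccacgattt
Control, 105 of 797 cycling, TRBV5 TRBJ2-3: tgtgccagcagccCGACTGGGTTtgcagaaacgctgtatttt
Its TRA, TRAV12-3 TRAJ26: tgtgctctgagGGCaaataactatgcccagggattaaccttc
Control, 25 of 183 cycling, TRBV5 TRBJ1-3: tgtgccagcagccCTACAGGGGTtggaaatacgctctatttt
Its TRA, TRAV12D-3 TRAJ11: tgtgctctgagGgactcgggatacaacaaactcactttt
Control, 6 of 20 cycling, TRBV5 TRBJ2-3: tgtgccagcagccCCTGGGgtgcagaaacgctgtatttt
Its TRA, TRAV9N-2 TRAJ24: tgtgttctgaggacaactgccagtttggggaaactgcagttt
Control, 0 of 39 cycling, TRBV5 TRBJ1-4: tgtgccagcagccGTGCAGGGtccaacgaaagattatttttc
Its TRA, TRAV7-5 TRAJ26: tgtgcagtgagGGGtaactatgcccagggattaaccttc
Control, 0 of 25 cycling, TRBV5 TRBJ2-1: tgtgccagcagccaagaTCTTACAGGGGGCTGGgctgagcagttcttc
Its TRA, TRAV16N TRAJ37: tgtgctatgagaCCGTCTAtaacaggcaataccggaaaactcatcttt

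Facts of the 2 libraries bear on every comparison. The anti-CD137 Tpex library was shallower, with a median of 1950 unique molecular identifiers (UMIs, counted RNA molecules) per cell and a lowest cell at 1472, against 4729 and 2558 in the control. Of anti-CD137 Tpex cells 75.1% lay below the lowest control cell in UMIs, and of anti-CD137 cycling cells 51.5%. Thinning to a common depth needs counts per gene, so here scores and phases are not ordered across depths. In the anti-CD137 Tpex library, 2 cells of 1 clonotype were also close to each other in RNA content. In its clonotypes of 2 cells with neither cycling, the median gap in the percent of UMIs from ribosomal protein genes was 0.931 sampling standard deviations, where copies of 1 cell would give 0.674, and in control pairs it was 4.51. A sampling standard deviation is larger at lower UMIs, and in points these gaps were 1.21 and 4.06. The gap of unrelated cells of the same library was not computed. Close pairs were not particular to this library: in effector libraries the gap of such pairs was 2.36 sampling standard deviations after anti-CD137 and 1.26 in the control. Whether some of these pairs are 1 cell recorded under 2 barcodes was not tested, and the main results that count cells of small clonotypes are given with and without merging such pairs. The 2 Tpex libraries shared 205 cell barcodes, of which 2 were cycling in both, and 11.0% of cycling anti-CD137 and 12.8% of cycling control cells had a barcode that also occurred in another library. The sources used here do not say how doublets were treated before deposit, and no doublet caller was run. Among cells with both chains, more than 1 TRB was found in 22.9% of cycling and 23.9% of remaining anti-CD137 cells, and in 7.02% of cycling and 7.21% of remaining control cells.

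At the 0.2 threshold the share of cycling cells was nearly the same in both treatments. It was 9.74% (9.24 to 10.3) after anti-CD137 and 9.16% (8.67 to 9.67) in the control, a difference of 0.576 points (-0.140 to 1.29). By the same threshold 19.3% of anti-CD137 and 29.1% of control Tex cells were cycling, and 2.99% and 1.79% of the PD1- effector cells, so the share in Tpex lay between those of the other sorted subsets under both antibodies. Depth differed between these libraries too, with median UMIs per cell of 3473 after anti-CD137 and 5619 in the control for Tex, and of 4035 and 4176 for effector cells. Of the thresholds tried, only 0.2 gave near equality in Tpex. At 0.1 the shares were 18.2% after anti-CD137 and 10.9% in the control, at 0.3 they were 5.18% and 7.83%, and cells with a deposited phase other than G1 made up 36.3% and 20.8%. The order of the treatments thus turned with the threshold.

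The values that chose the members are described here without a test. After anti-CD137 33.4% of cycling cells passed by S score alone, 50.0% by G2M score alone and 16.6% by both, while in the control these shares were 30.8%, 37.6% and 31.6%. The median G2M score of cycling cells was 0.245 after anti-CD137 and 0.422 in the control, and the median S score was 0.198 and 0.280. Members near the threshold were more frequent after anti-CD137: the higher score lay between 0.2 and 0.25 in 355 of its cycling cells (27.6%) and in 91 control cycling cells (7.72%). Just outside, between 0.15 and 0.2, lay 464 remaining anti-CD137 cells (3.89%) and 99 remaining control cells (0.847%). The deposited phase of cycling cells was S in 41.8% and G2M in 58.2% after anti-CD137, and S in 43.7% and G2M in 56.3% in the control. No cycling cell had phase G1, as the construction of the phase from the same scores requires, whereas 70.5% of remaining anti-CD137 and 87.2% of remaining control cells did.

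Cycling cells carried more RNA molecules than the remaining Tpex cells, and the excess was greater in the control. After anti-CD137 their median was 2482 UMIs per cell against 1912 in remaining cells, a ratio of 1.30 (1.24 to 1.36). In the control it was 8867 against 4558, a ratio of 1.95 (1.87 to 2.0). Medians of genes detected were 1282 against 1045 after anti-CD137 and 2846 against 1810 in the control. No cycling control cell had more than 3996 genes, and 76 cycling control cells (6.45%) against 30 remaining ones (0.257%) had at least 3800, close to the upper end of the table. The percent of UMIs from ribosomal protein genes, which encode the translation machinery, was 23.8 in cycling and 24.3 in remaining anti-CD137 cells, and 20.2 in cycling and 25.4 in remaining control cells. Mitochondrial percentages were close, with medians of 1.54 against 1.64 and of 1.47 against 1.57. Cycling cells yielded 13.9% of all UMIs of the anti-CD137 Tpex library and 15.0% of those of the control library.

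The members by score also differed among themselves in depth. Cells passing both scores had the most UMIs, with medians of 3536.5 after anti-CD137 and 9516 in the control. Cells passing by G2M alone had the fewest, at 2235 and 7853, and cells passing by S alone had 2484 and 8947. G2M-only cells also had the lowest ribosomal percent, with medians of 22.8 after anti-CD137 and 18.1 in the control, against 25.4 and 22.4 in S-only cells.

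Within bins of equal UMIs the anti-CD137 share of cycling cells was higher than the control share in all 6 shared bins, with intervals apart in 5. At 3000 to 4000 UMIs 15.3% of 1128 anti-CD137 Tpex cells and 1.89% of 3176 control Tpex cells were cycling. At 5000 to 7000 UMIs the shares were 39.7% of 302 and 6.59% of 3127 cells. At 10000 UMIs or more they were 48.6% of 70 and 47.9% of 912 cells, with overlapping intervals. Over the 6 shared bins, weighted by cells, the share averaged 26.9% in 3441 anti-CD137 cells and 8.14% in 12871 control cells. A given UMI count is a rare, deep cell in the anti-CD137 library and a common one in the control. When each library was ranked by UMIs and divided into 5 equal groups, the deepest group was 21.0% cycling after anti-CD137 and 31.5% in the control, and the shallowest group 5.30% and 2.17%. By rank the control was thus higher among the deepest cells, an order that no bin of equal UMIs showed, and which of these views compares like cells was not tested.

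**Figure D1:**
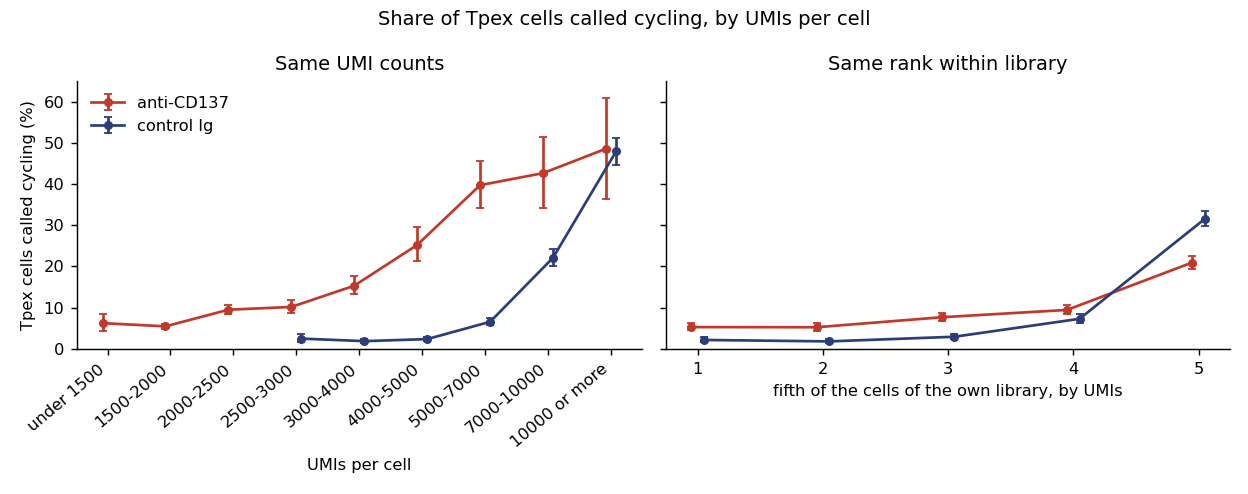
Share of Tpex cells called cycling (%) by UMIs per cell, with exact 95% intervals, for anti-CD137 (red) and control Ig (blue), in bins of equal UMI counts (left) and in 5 equal groups of each library ranked by UMIs (right). At 5000 to 7000 UMIs the shares were 39.7% and 6.59%, while in the deepest group of each library they were 21.0% and 31.5%.

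Cycling Tpex cells lay less often than remaining cells in the main Tpex cluster, number 1, and the next most frequent cluster differed between the treatments. How the clusters were made is not stated in the sources used here, and since genes of the scores may have entered them, these shares are a description. Cluster 1 held 62.8% of cycling against 86.2% of remaining cells after anti-CD137, and 57.9% against 90.4% in the control. After anti-CD137 the next cluster was number 5, with 32.0% of cycling (411 cells) against 11.9% of remaining cells. In the control it was number 3, the cluster of most control Tex cells, with 31.0% of cycling (366 cells) against 0.488% of remaining cells (57 cells). Only 37 anti-CD137 cycling cells (2.88%) lay in cluster 3, and 80 control cycling cells (6.79%) in cluster 5.

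Seen from the clusters, Tpex cells in cluster 3 were mostly cycling, 37 of 48 (77.1%) after anti-CD137 and 366 of 423 (86.5%) in the control. Of Tex cells in the same cluster 51.7% of 1898 were cycling after anti-CD137 and 31.5% of 9229 in the control. The Tpex cells in cluster 3 were therefore more often cycling than its Tex cells, with intervals of 62.7 to 88.0% and 49.5 to 54.0% after anti-CD137, and of 82.9 to 89.6% and 30.6 to 32.5% in the control. In cluster 5, 22.4% of anti-CD137 and 19.6% of control Tpex cells were cycling, and in cluster 1, 7.29% and 6.07%. Cluster 8 was small, with 10 of 11 anti-CD137 and 15 of 27 control Tpex cells cycling. Without clusters 3 and 4, which hold most Tex cells, the cycling share of Tpex cells was 9.42% after anti-CD137 and 6.36% in the control.

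The kind of score went with the cluster. Of control cells passing both scores 62.7% lay in cluster 3, against 23.0% of G2M-only and 8.26% of S-only cells. Of anti-CD137 cells cluster 5 held 41.1% of those passing both scores, 20.4% of G2M-only and 44.8% of S-only cells. Depth went with the cluster too, with median UMIs of cycling cells of 2198 in cluster 1, 5734 in cluster 3 and 3319 in cluster 5 after anti-CD137, and of 8218, 9502.5 and 12424.5 in the control. Averaged over UMI bins, cluster 5 held 23.7% of cycling against 12.6% of remaining anti-CD137 cells, but 3.50% against 3.46% in the control. The control average joined bins of opposite direction. In the control cluster 5 held 4.29% of cycling against 1.08% of remaining cells at 4000 to 5000 UMIs. At 7000 to 10000 UMIs it held 3.67% against 8.36%, and at 10000 or more 12.6% against 18.1%. The control share of cluster 3 remained apart at equal UMIs, 18.7% of cycling against 0.489% of remaining cells.

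**Figure D2:**
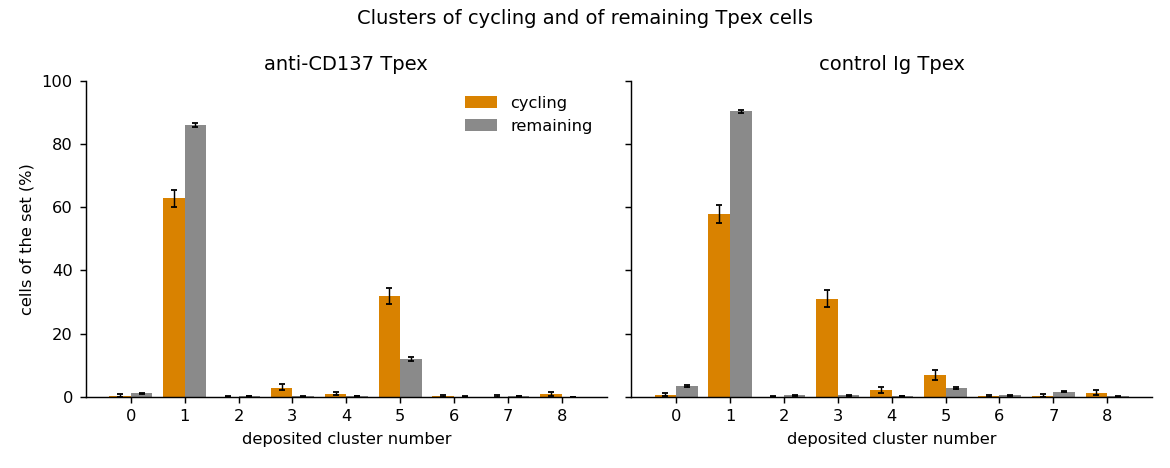
Share of cycling (orange) and of remaining (grey) Tpex cells in each deposited cluster (%), with exact 95% intervals, for anti-CD137 (left) and control Ig (right). Beside cluster 1, cycling cells stand out in cluster 5 after anti-CD137 (32.0%) and in cluster 3 in the control (31.0%).

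Cycling cells had more TCR molecules as well as more UMIs. Both chains were found in 43.1% of cycling (554 cells) against 32.9% of remaining cells (3917) after anti-CD137, a difference of 10.2 points (7.37 to 13.1). In the control the shares were 79.7% (940 cells) against 77.8% (9101), a difference of 1.89 points (-0.635 to 4.28). Averaged over UMI bins the differences were 0.504 points after anti-CD137 and -1.21 points in the control, but these averages joined bins of opposite direction. After anti-CD137 the shares were 23.4% of cycling against 27.9% of remaining cells at 1500 to 2000 UMIs, and 81.0% against 25.6% at 7000 to 10000. In the control they were 32.0% against 68.9% at 2500 to 3000 UMIs, and 78.5% against 56.0% at 10000 or more. Paired cells had on average 9.98 TRB UMIs in cycling against 7.37 in remaining anti-CD137 cells, and 23.5 against 16.6 in the control. Results on clonotypes therefore rest on 43.1% of the anti-CD137 cycling cells.

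Cycling cells were more often in expanded clonotypes than the remaining cells in both treatments. After anti-CD137 53.2% of paired cycling against 29.4% of paired remaining cells belonged to clonotypes of at least 2 Tpex cells, a difference of 23.8 points (19.3 to 28.3). In the control the shares were 63.3% against 55.6%, a difference of 7.67 points (4.33 to 10.9), which was 2.88 points without the 10 largest clonotypes, with an interval that included 0 (-1.16 to 6.95). At equal UMIs the differences were 17.8 points after anti-CD137 and 19.8 points in the control, so the greater excess after anti-CD137 was not seen there. With near-identical cells of clonotypes of up to 9 cells merged, as chosen after seeing the data, the anti-CD137 shares were 23.2% of 431 cycling and 13.8% of 3497 remaining cells, and the control shares were 62.1% and 53.3%. Merging removed 22.2% of anti-CD137 and 1.28% of control cycling cells. The anti-CD137 excess of 23.8 points was thus 9.45 points (5.37 to 13.9) after merging, and the control excess 8.80 points (5.43 to 12.1). The merging limit is set in sampling standard deviations, so in points it is wider in the shallower anti-CD137 library. How many unrelated cells would also fall within it was not computed, so merged cells cannot be read as copies of 1 cell. Clonotypes of at least 5 cells held 7.58% against 6.00% after anti-CD137, a difference within counting error, and 45.5% against 36.1% in the control.

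The sizes at which cycling cells were frequent differed between the treatments. After anti-CD137 the share of cycling cells was 8.57% of cells alone in their clonotype, 17.3% in clonotypes of 2, 28.3% in clonotypes of 3 to 4 and 10.8% in those of 5 to 9 cells. In the control the same sizes gave 7.87%, 7.52%, 9.78% and 8.08%. With near-identical cells merged and sizes counted anew, anti-CD137 cells were 9.89%, 19.1%, 11.2% and 0% cycling at these sizes, the last of 16 cells, and control cells 7.93%, 7.20%, 10.2% and 11.1%. After merging the anti-CD137 share was thus highest in clonotypes of 2 among these sizes, and no longer in those of 3 to 4. The merged classes hold other cells than the first ones, 320 against 712 anti-CD137 cells in clonotypes of 2. What became of the cells of each first class was not followed. Control clonotypes of 30 or more cells stood highest, with 13.4% of 2077 cells cycling, and held 29.7% of control cycling against 19.8% of remaining cells. This class had only 9 clonotypes, and its value rests on the largest, with 135 of 869, 105 of 797 and 25 of 183 cells cycling. The others, of 31 to 44 cells, had 0 to 4 cycling cells each, so the value does not describe large clonotypes in general. The anti-CD137 library had only 1 clonotype of that size, with 46 cells.

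All cells or none were cycling in 90.2% of anti-CD137 and 89.7% of control clonotypes of 2. Most of these uniform clonotypes had no cycling cell, 277 of 356 clonotypes of 2 after anti-CD137 and 441 of 505 in the control. Only 17.3% and 7.52% of cells in clonotypes of 2 were cycling, and a low share by itself makes uniform clonotypes frequent. The uniform share that unrelated cells would give was not computed. More of the uniform clonotypes were cycling after anti-CD137. In anti-CD137 clonotypes of 2 cells, without merging, the other cell of the clonotype was cycling for 71.5% of cycling cells, against 5.94% of remaining cells. In the control these shares were 31.6% against 5.57%. Both cells were cycling in 44 of 356 anti-CD137 and 12 of 505 control clonotypes of 2, and all cells in 25 of 142 anti-CD137 and 1 of 275 control clonotypes of 3 to 4. Of the 295 anti-CD137 cycling cells in expanded clonotypes 56.6% lay in clonotypes with all cells cycling, against 4.54% of the 595 control ones. Such clonotypes had at most 4 cells after anti-CD137 and at most 3 in the control, and 5 of 69 and 0 of 13 were found in Tex. The 56.6% and 4.54% are not at like clonotype sizes, and they were not computed after merging. Clonotypes of 30 or more, none of them all cycling, held 6 anti-CD137 and 279 control cycling cells. In the 44 anti-CD137 pairs the S scores correlated with r = 0.86, the G2M scores with r = 0.91 and the ribosomal percents with r = 0.95, as a description of 44 pairs in 1 library. Their median gap in ribosomal percent was 0.985 points, or 0.985 sampling standard deviations, and 79.5% were within 2. The 12 control pairs with both cells cycling were also close, with a gap of 1.15 points (1.67 sampling standard deviations), r = 0.84 for the ribosomal percent and 50% within 2. Pairs with 1 cycling cell had a gap of 1.27 points after anti-CD137 and of 5.71 points in the control.

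**Figure D3:**
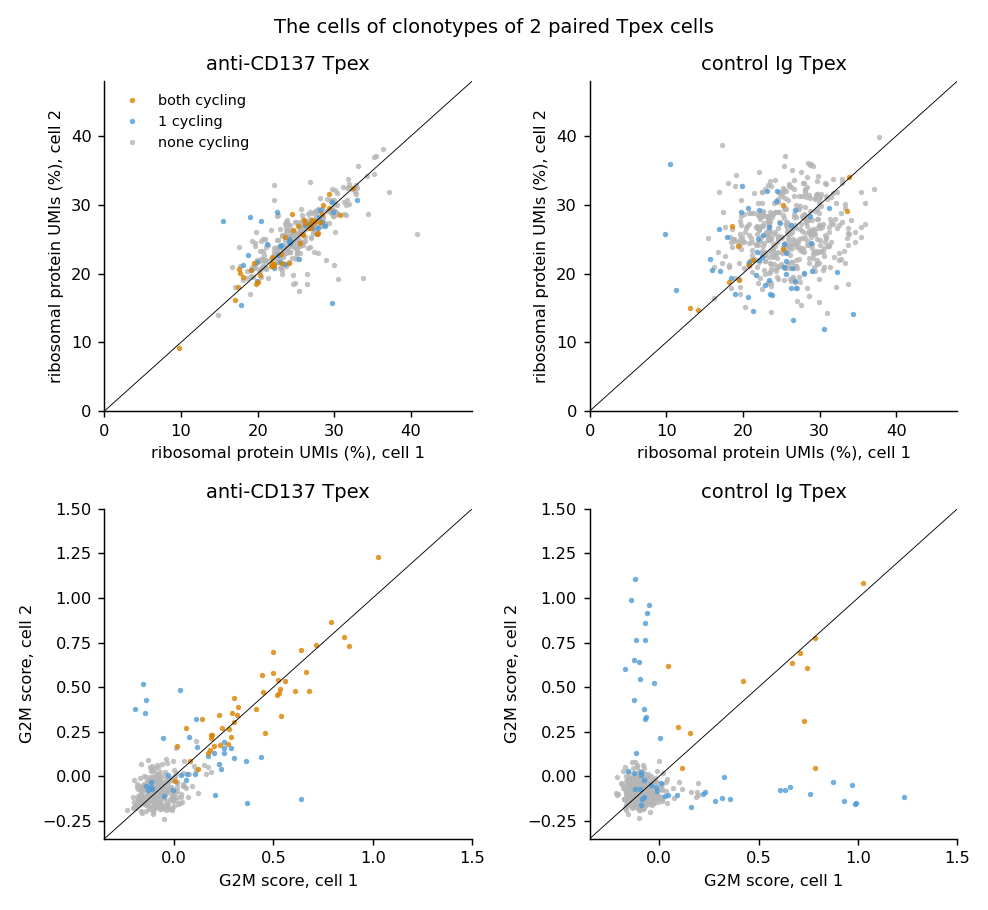
Ribosomal percent (top) and G2M score (bottom) of the first against the second cell of each clonotype of 2 paired Tpex cells, for anti-CD137 (left, 356 clonotypes) and control Ig (right, 505 clonotypes), with both cells cycling in orange, 1 in blue and none in grey. In ribosomal percent anti-CD137 pairs lie closer to the line of equal values than control pairs with at most 1 cycling cell. G2M scores of pairs with both cells cycling had r = 0.91 after anti-CD137 and 0.51 in the control, while pairs with 1 cycling cell include points far off the line in both treatments.

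Counted by cells, cycling cells had a clonotype found in Tex less often than remaining cells after anti-CD137, and more often in the control. The difference between treatments was not tested. After anti-CD137 46 of 554 paired cycling cells (8.30%) had a clonotype found in Tex, against 488 of 3917 remaining cells (12.5%), a difference of -4.16 points (-6.57 to -1.35). In the control 409 of 940 cycling cells (43.5%) did, against 3405 of 9101 remaining cells (37.4%), a difference of 6.10 points (2.75 to 9.49). By TRB alone the differences were -6.62 points after anti-CD137 and 5.99 points in the control. With near-identical cells merged the shares were 7.42% against 11.4% after anti-CD137, and 43.8% against 37.1% in the control. At equal UMIs the differences were -1.94 points after anti-CD137 and 18.2 points in the control. Within cluster 1 they were -1.49 points (-5.06 to 2.78) and 4.32 points (-0.0425 to 8.76), and neither interval excluded 0. Each treatment's own Tex library sets how many clonotypes can be found, so levels are not compared between treatments.

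The control difference was carried by its largest clonotypes. All cells of clonotypes of 30 or more were found in Tex, cycling or not, and these clonotypes held more of the cycling cells. In every smaller size class cycling control cells were found in Tex less often than remaining ones, 1.45% against 4.41% of single cells, 14.5% against 18.7% in clonotypes of 2 and 62.2% against 73.2% in clonotypes of 10 to 29, though only the interval of the difference in single cells excluded 0. Weighted over sizes the shares were 34.9% of cycling and 38.3% of remaining cells, a difference of -3.33 points, and without the 10 largest clonotypes they were 19.1% and 21.7%. Counted once each, 96 of 572 clonotypes with a cycling cell (16.8%) were in Tex, against 9.75% of 5006 clonotypes with a remaining cell, a count in which larger clonotypes enter the first set more easily. The same count after anti-CD137 gave 5.64% of 408 against 7.17% of 3224, within counting error. After anti-CD137 sharing was lower in cycling cells in each size class up to 29. The interval excluded 0 for single cells, for 3 to 4 and for 10 to 29 cells, but it treats cells of 1 clonotype as independent. The class of 10 to 29 had only 5 clonotypes, and 11 of its 20 cycling cells came from 1 clonotype with 0 cells in Tex. In clonotypes of 3 to 4 the shares were 12.3% of 130 cycling against 38.6% of 329 remaining cells. With near-identical cells merged and sizes counted anew, clonotypes of 3 to 4 had 53.8% of 13 against 63.1% of 103 cells. Merged single cells had 2.42% against 5.17%, and the intervals overlapped at both sizes. Merged clonotypes of 2 had 11.5% of 61 against 32.8% of 259 cells, with intervals apart.

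Sharing also went with the cluster. Among control cycling cells 43.3% of those in cluster 1, 51.5% in cluster 3 and 5.88% in cluster 5 had a clonotype in Tex, against 39.0%, 77.3% and 25.3% of remaining cells. After anti-CD137 cycling cells of cluster 5 were found in Tex in 2.94% of cases, against 7.71% of remaining ones, and those of cluster 1 in 11.7%, against 13.2%. Without clusters 3 and 4 the control shares were 38.7% of cycling and 37.1% of remaining cells. Cycling cells whose clonotype was in Tex more often had a cycling Tex relative, 92.9% against 78.9% in the control, and 65.2% against 54.1% after anti-CD137, where the intervals overlapped. A clonotype with more Tex cells includes a cycling one more easily, and these shares were not matched for clonotype size. In the control 16.3% of cycling against 10.3% of remaining cells had a clonotype in the PD1- effector library, and after anti-CD137 3.07% against 4.60%. The control values rest largely on 1 clonotype, that of TRBV2 and TRAV6-7-DV9, which had 2 cells in the effector library. It held 135 of 940 paired cycling and 734 of 9101 paired remaining control cells, and the difference without it was not computed.

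**Figure D4:**
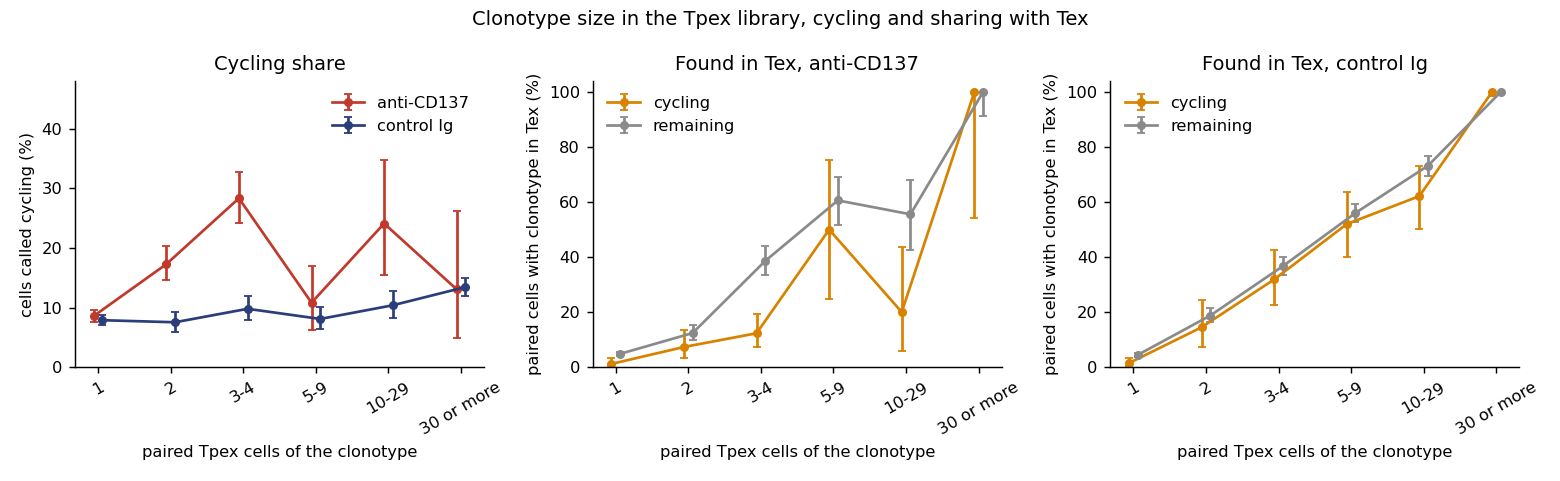
Left, share of paired Tpex cells called cycling (%) by the number of paired Tpex cells in the clonotype, for anti-CD137 (red) and control Ig (blue); middle and right, share of cycling (orange) and remaining (grey) cells whose clonotype was found in Tex (%), with exact 95% intervals. Grey lies at or above orange in every size class of both treatments, while clonotypes of 30 or more cells were all found in Tex.

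Single clonotypes differed in their share of cycling cells. In the control, of 18 clonotypes of at least 20 paired Tpex cells, 3 (16.7%) had an interval above the 9.36% of all paired control cells and 1 (5.56%) an interval below it. The clonotype of TRBV2 and TRAV6-7-DV9 had 135 of 869 Tpex cells cycling (15.5%, 13.2 to 18.1), that of TRBV5 and TRAV12-3 had 105 of 797 cells (13.2%, 10.9 to 15.7), and that of TRBV5 and TRAV9N-2 had 6 of 20 (30%, 11.9 to 54.3). The first 2 alone held 25.5% of paired control cycling cells and 15.7% of remaining ones. The lowest was the clonotype of TRBV5 and TRAV7-5, with 0 of 39 cells cycling (0 to 9.03%). That of TRBV5 and TRAV16N had 0 of 25, which allows a share of up to 13.7%, as did that of TRBV16 and TRAV6-7-DV9. In all, 5 of the 18 had 0 cycling Tpex cells. Between these, the clonotype of TRBV5 and TRAV12D-3 had 25 of 183 cycling (13.7%) and that of TRBV31 and TRAV12-2 had 5 of 29 (17.2%), with intervals that included 9.36%. The TRBV5 junctions printed above thus include clonotypes with high and with low shares of cycling cells.

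Control clonotypes present in both subsets mostly had higher cycling shares in Tex than in Tpex. Of 9 control clonotypes with at least 20 cells in both subsets, 8 had a higher share of cycling cells in Tex, and the other had 0 in both. The clonotype of TRBV2 had 32.7% of 762 Tex cells cycling, that of TRBV5 and TRAV12-3 34.5% of 702, and that of TRBV5 and TRAV9N-2 73.0% of 37. Of the 5 control clonotypes of at least 20 Tpex cells with 0 cycling Tpex cells, only some had cycling Tex cells. These were 37 of 172 for TRBV5 and TRAV7-5 (21.5%) and 107 of 589 for TRBV5 and TRAV16N (18.2%). The others had 0 cycling among 43, 8 and 7 Tex cells. Of the 135 cycling Tpex cells of the TRBV2 clonotype 68 lay in cluster 1 and 58 in cluster 3.

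Only 2 anti-CD137 clonotypes had at least 20 paired Tpex cells, and 1 of them (50%) had an interval above the 12.4% of all paired cells and 0 (0%) an interval below it. The clonotype of TRBV12-2 and TRAV13-1 had 11 of 29 cells cycling (37.9%, 20.7 to 57.7), 10 of them in cluster 1, and 0 cells in Tex or among effector cells. That of TRBV17 and TRAV3N-3 had 6 of 46 (13.0%, 4.94 to 26.3), against 17 of 116 in Tex (14.7%). Among smaller clonotypes, that of TRBV29 and TRAV12-2 had 5 of 15 cells cycling, that of TRBV13-1 and TRAV12N-1 had 4 of 11 and that of TRBV19 and TRAV13N-3 had 4 of 6. By TRB alone, all 6 cells of the TRBV29 chain printed above were cycling, with 2 TRA chains among them and 0 cells in Tex.

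**Figure D5:**
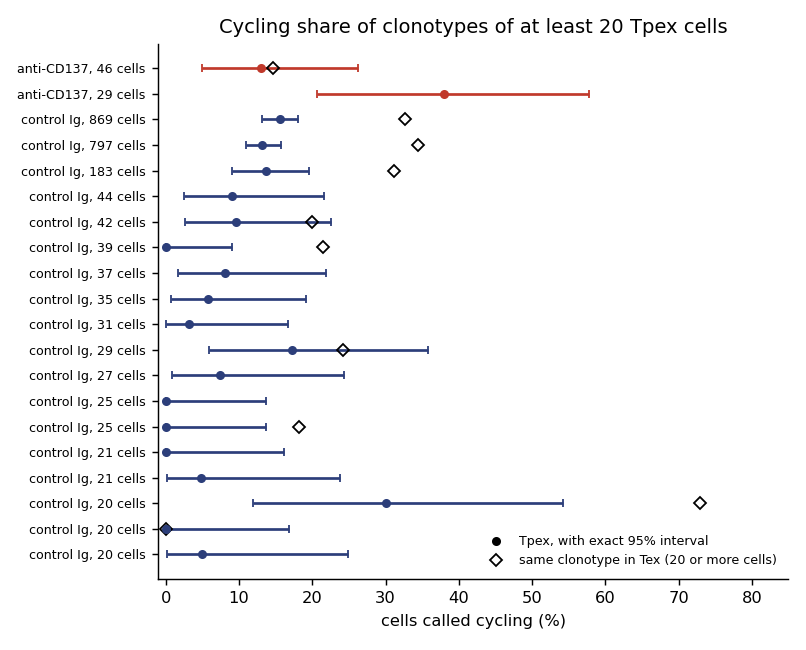
Share of cells called cycling (%) in each clonotype of at least 20 paired Tpex cells, with exact 95% intervals (filled circles), and in the same clonotype's Tex cells where there were at least 20 (open diamonds); anti-CD137 clonotypes (red) stand above control Ig clonotypes (blue), each by size. Control diamonds lie to the right of the circles except for 1 clonotype at 0 in both.

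Few V segments separated cycling from remaining cells, and those higher in cycling cells were segments of the largest control clonotype. After anti-CD137 64 segments with at least 1% of either set were compared: 0 (0%) were higher in cycling cells with intervals apart and a ratio of at least 1.5, and 3 (4.69%) were lower. These were TRAV16 (0.542% of cycling against 2.02% of remaining cells), TRAV4-3 (0.181% against 1.51%) and TRAV8N-2 (0.903% against 3.32%), in counts of 3, 1 and 5 cycling cells. They were also lower with each clonotype counted once, at 0.735% against 2.20%, 0.245% against 1.49% and 1.23% against 2.85%. In the control 59 were compared, with 2 (3.39%) higher and 2 (3.39%) lower. The higher ones were the segments of the largest clonotype, TRBV2 (16.0% against 9.97%) and TRAV6-7-DV9 (15.2% against 9.49%). With each clonotype counted once they were at 2.62% against 2.36% and at 1.40% against 1.56%. The lower ones were TRBV19 (3.94% against 5.91%) and TRAV6N-6, with 0 of 940 cycling cells, which allows a share of up to 0.392%, against 1.11% of remaining cells. By clonotypes counted once these were also lower, at 6.12% against 7.93% and at 0% against 1.52%. Many TRAV segments have near-identical copies in this mouse strain, and the naming of such copies is uncertain. CDR3 lengths of clonotypes differed by less than their spread, with TRB means of 42.2 ± 4.33 bases in cycling and 42.0 ± 4.51 in remaining anti-CD137 clonotypes, and of 41.7 ± 4.23 and 41.6 ± 4.40 in the control (SD over 408, 3224, 572 and 5006 clonotypes).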

How the data were processed

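The submitters' processing notes name mm10, Seurat 4.0.0 and Cell Ranger 3.0.2, without settings. The cell table deposited by the authors gives, per cell, the count of UMIs and of genes, the percent of mitochondrial and ribosomal UMIs, a cluster number, and S and G2M scores with the phase derived from them. The deposited TCR table gives each contig's chain, segments, CDR3 and count of UMIs. Other columns were not used. Depth was 31252414 UMIs in the anti-CD137 and 70780078 in the control Tpex library.

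Contigs were matched to the cell table on barcode within each library, and the chain of each kind with most UMIs was kept. A clonotype was the nucleotide CDR3 pair in cells with both chains. Shares have exact Clopper-Pearson 95% intervals (scipy 1.17.1), differences Newcombe intervals and medians order-statistic intervals. UMI bins needed 20 cells of both sets. Cells of clonotypes of 2 to 9 cells were merged where their ribosomal and mitochondrial percents lay within 2 sampling standard deviations. Named clonotypes were the 5 with most cycling cells in each library and, among those of at least 20 cells, the 3 with the highest and lowest shares; segments needed 1% and a 1.5-fold ratio with intervals apart. The comparisons were checked on simulated data. The members, lists and rules were chosen with earlier results of these data known. Alternatives varied the score threshold, UMI bins, clonotype definition and cells used.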

Additional observations from a re-analysis of the deposited data

Results flagged for a closer look

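Each of these differences between cycling and remaining Tpex cells had opposite directions in the 2 treatments, with an interval that excluded 0 in each. With 1 library per treatment the difference between treatments was not tested. Points are percentage points, cycling minus remaining.

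Any TCR chain was found 11.0 points more often in cycling cells after anti-CD137, and the difference was -3.06 points in the control. Clonotypes of exactly 2 cells held 7.17 points more of the cycling cells after anti-CD137, against a difference of -2.18 points in the control. With near-identical cells merged, as added after seeing the data, these were 6.75 and -2.89 points. In cluster 5 alone, clonotypes of at least 2 cells held 50.0% of cycling against 32.5% of remaining cells after anti-CD137, a difference of 17.5 points, and 14.7% against 37.2% in the control, a difference of -22.4 points. Merging left 6.47 points (-0.0162 to 13.8) after anti-CD137 and -20.4 points in the control. The clonotype was found in Tex with a difference of -4.16 points after anti-CD137 and 6.10 points in the control, and the TRB alone with -6.62 and 5.99 points.

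The TCR table also holds barcodes that are not in the cell table, 11950 with a TRB in the anti-CD137 and 1838 in the control Tpex library. The TRB of a cell recurred at such a barcode for 41.2% of cycling against 60.2% of remaining cells after anti-CD137, a difference of -19.1 points, and for 43.4% against 37.4% in the control, a difference of 5.99 points.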

How the results depend on the processing

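No paired analysis was possible because each group is 1 library. Over 11 results, 72 alternative values were computed: 34 stayed within counting error of the reported value and 38 moved further. The sign changed in 5 of the 72, namely the share difference at 0.3, control pairing in UMI bins and by any chain, and control sharing with Tex over clonotype sizes and without the 10 largest, and the cause was not tested. Values are points or ratios as in the report; merging and leaving out clusters 3 and 4 were chosen after seeing the data. Sharing with Tex in the control turned to -3.33 over clonotype sizes and to -2.69 (-5.78 to 0.661) without the 10 largest clonotypes. At a threshold of 0.1 the treatment difference in cycling share was 7.32, the UMI ratios 1.15 (anti-CD137) and 1.85 (control), and for anti-CD137 the paired difference 0.641 and the expanded difference 16.6. At 0.3 they were -2.65 for the share, 1.58 for the anti-CD137 ratio, 17.1 (anti-CD137) and 2.48 (control) for cluster 5, 19.8 for anti-CD137 pairing and 30.3 for anti-CD137 expansion. In UMI bins the share difference was 18.7, cluster 5 gave 11.0 (anti-CD137) and 0.0369 (control), pairing 0.504 and -1.21, expansion 17.8 and 19.8, and control sharing with Tex 18.2. The share difference was 15.6 by phase other than G1, 3.03 in paired cells, 2.33 with each clonotype once, 3.06 without clusters 3 and 4, and 1.38 after merging. In cluster 1 alone the UMI ratios were 1.17 (anti-CD137) and 1.82 (control), and in cells with exactly 1 TRA and 1 TRB the anti-CD137 ratio was 1.63. Among paired cells the anti-CD137 cluster 5 difference was 26.2, and by any chain the control difference in TCR detection was -3.06. Anti-CD137 expansion was 14.9 by TRB alone, 1.58 at 5 or more cells and 9.45 after merging, and control expansion was 2.88 (-1.16 to 6.95) without the 10 largest clonotypes. Sharing with Tex after anti-CD137 was -6.62 by TRB alone and -6.94 over clonotype sizes, and in the control 1.60 (-2.38 to 5.68) without clusters 3 and 4. Depth limits the anti-CD137 Tpex library: fewer than 50.0% of its cycling cells have both chains. Of all its cells 75.1%, and of its cycling cells 51.5%, lie below the lowest control cell in UMIs.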
